A study of Mus musculus with 12 samples.

Results

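The effect of deleting the miR-17 motif of Pkd2 was compared between cystic and noncystic mouse kidneys, gene by gene. The measure is the interaction of disease and deletion, the log2 effect of the deletion in cystic kidneys minus its log2 effect in noncystic kidneys. It equals the log2 effect of cystic disease in mice with the deletion minus that in mice without it. All 12 of the 12 mice of the series enter this difference of differences, grouped by their titles, as 4 groups of 3. The titles name neither Cre nor a cystic state, and the full genotypes given below follow the paper. RNA was sequenced from whole kidneys of C57BL/6 mice aged 18 days, and the deposited values are reads counted per gene.

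All 4 groups carry the RC allele of Pkd1, a hypomorphic allele with a point mutation, on 1 chromosome. The noncystic groups are Pkd1 RC/F mice, in which the second Pkd1 allele is floxed but intact (Pkd1 RC/+ in effect), with either Pkd2+/+ or Pkd2 Δ17/Δ17. The cystic groups are KspCre;Pkd1 RC/F mice (Pkd1 RC/- in effect), again with either Pkd2+/+ or Pkd2 Δ17/Δ17. In Δ17 mice the motif in the 3′-UTR of Pkd2 that miR-17 reads is gone from the germline, so the deletion is present in every cell and before disease starts. KspCre is driven by the promoter of kidney-specific cadherin and removes the floxed allele in tubule epithelium only, whereas the RNA comes from all cells of the kidney. Fewer cells of a type and less RNA per cell cannot be told apart in these bulk samples. Total counts ran from 18800307 to 24453033 per mouse. Levels are given as CPM, the count of a gene relative to the TMM-scaled size of its library. The TMM factors ran from 0.933 to 0.972 in the noncystic groups and from 1.04 to 1.08 in the cystic groups. Summed adrenal gland markers were 6.12 to 12.5 CPM in 10 mice, 73.1 CPM in the cystic Pkd2+/+ mouse 27 and 502 CPM in the cystic Δ17/Δ17 mouse 30, and the part of this tissue in the results was not tested beyond leaving out each mouse.

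Polycystin-1 and polycystin-2, the products of Pkd1 and Pkd2, form a receptor and channel complex in the primary cilium, and loss of either below a threshold dose causes autosomal dominant polycystic kidney disease. miR-17 is a microRNA that binds short matches to its seed in 3′-UTRs and lowers the level of the mRNA. The cystic kidney loses differentiated tubule functions, such as salt reabsorption by the thick ascending limb, and gains injury, matrix and immune transcripts. An interaction of 0 means that the deletion shifted a gene equally, on the log2 scale, with and without disease.

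The site that was deleted and the microRNA that reads it are shown because every comparison below turns on them. The Pkd2 stretch lies in exon 15 of Pkd2 on the forward strand of GRCm38, at chr5:104503810-104503839, within the 3′-UTR, and is the reference (unedited) sequence with the match to the seed in capitals. The microRNA is the mature sequence of RefSeq (GRCm38.p6, chr14:115043684-115043706, forward strand) with its seed, bases 2 to 8, in capitals.
Pkd2 miR-17 site: tataattttctGCACTTTaatttattttac
mmu-miR-17-5p: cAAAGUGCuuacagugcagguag

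The 7 capital letters of the site, at 104503821 to 104503827, are the reverse complement of the seed, and the 3′-UTR of 2131 nucleotides holds 1 such match. The exact ends of the deleted stretch were not analysed.

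Pkd2 itself was measured first. Its level was 217, 194 and 219 CPM in noncystic Pkd2+/+ mice and 277, 286 and 271 CPM in noncystic Δ17/Δ17 mice. It was 232, 233 and 213 CPM in cystic Pkd2+/+ mice and 337, 336 and 307 CPM in cystic Δ17/Δ17 mice. The genotypes did not overlap in either disease state, with the higher values in Δ17/Δ17 mice. The deletion effect was 0.40 (standard error 0.08) on the log2 scale in noncystic kidneys and 0.53 (standard error 0.08) in cystic kidneys. In edgeR's test that effect had an adjusted p = 0.771 in noncystic and 0.00249 in cystic kidneys, so only the cystic effect passed. The difference of these effects, the interaction, was 0.13 (standard error 0.11, 95% interval -0.11 to 0.36), with an adjusted p = 0.818 (edgeR quasi-likelihood F-test, Benjamini-Hochberg). A larger effect of the deletion on Pkd2 mRNA in cystic kidneys was therefore not detectable with 3 mice per group. For the protein, polycystin-2, the paper reported a rise with the deletion in cystic but not in noncystic kidneys, a different measure from mRNA. Pkd1, whose product pairs with that of Pkd2, had an interaction of -0.19 (standard error 0.15).

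The mRNAs of the other mouse genes that the study assayed also did not pass the test of the interaction. The study measured these genes as protein, in phosphorylated form for Creb1, in kidneys or cells. It set Δ17/Δ17 against Pkd2+/+ in the cystic state and gave no interaction, so the values here are a different measure. Yap1, a transcriptional coactivator of the Hippo pathway, had an interaction of 0.09 (standard error 0.11) and Creb1, the cAMP-responsive transcription factor, -0.04 (standard error 0.12). Mettl3, the catalytic subunit of the m6A RNA methyltransferase, had -0.16 (standard error 0.18), and 18.4% of its exonic bases are shared with Tox4. Myc, the growth-promoting transcription factor, had -0.30 (standard error 0.18), with levels of 28.9, 36.1 and 35.3 CPM in cystic Pkd2+/+ and 26.4, 24.7 and 28.8 CPM in cystic Δ17/Δ17 kidneys. Mrc1, the mannose receptor of tissue macrophages, stood at 36.9, 47.7 and 39.98 CPM in cystic Pkd2+/+ and at 29.6, 26.9 and 31.6 CPM in cystic Δ17/Δ17 kidneys, against 8.91 to 13.7 CPM in the noncystic mice. The cystic groups did not overlap for Mrc1, but its interaction of -0.56 (standard error 0.20) had an adjusted p = 0.462 in edgeR's test.

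Across the 24642 genes tested, 3 passed an adjusted p of 0.05, which is 0.0122% of the genes tested. Of these, 2 had an interaction above 0 (0.00812%) and 1 below 0 (0.00406%). At an unadjusted p under 0.05 there were 2053 genes (8.33%), of which 1056 lay above 0 (4.29%) and 997 below 0 (4.05%). The contrast is less precise than a comparison of a pair of groups. Over the 13692 genes whose log2CPM averaged at least 1, the median standard error was 0.158 for the interaction and 0.111 for the deletion effect in cystic kidneys, and the median 95% interval of the interaction reached 0.33 to either side.

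Over these 13692 genes the effects that make up the interaction were compared in size, as a description. The median absolute effect of the deletion was 0.0993 on the log2 scale in noncystic and 0.123 in cystic kidneys, and the SD over genes was 0.183 and 0.282. Read the other way, the median absolute effect of cystic disease was 0.311 with Pkd2+/+ and 0.252 with Δ17/Δ17, and 65.1% of the genes had the smaller disease effect with Δ17/Δ17. The effects of disease with either genotype, which come from different mice, had the same sign in 85.9% of the genes and correlated across genes with r = 0.90. The effects of the deletion in either disease state, also from different mice, had the same sign in 59.2% and correlated with r = 0.23. The median absolute deletion effect in cystic kidneys, 0.123, was close to its median standard error of 0.111. Noise of that size lowers such agreement, so no contrast is read from 0.23 beside 0.90. Genes are not independent replicates, and these correlations are descriptions.

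**Figure D1:**
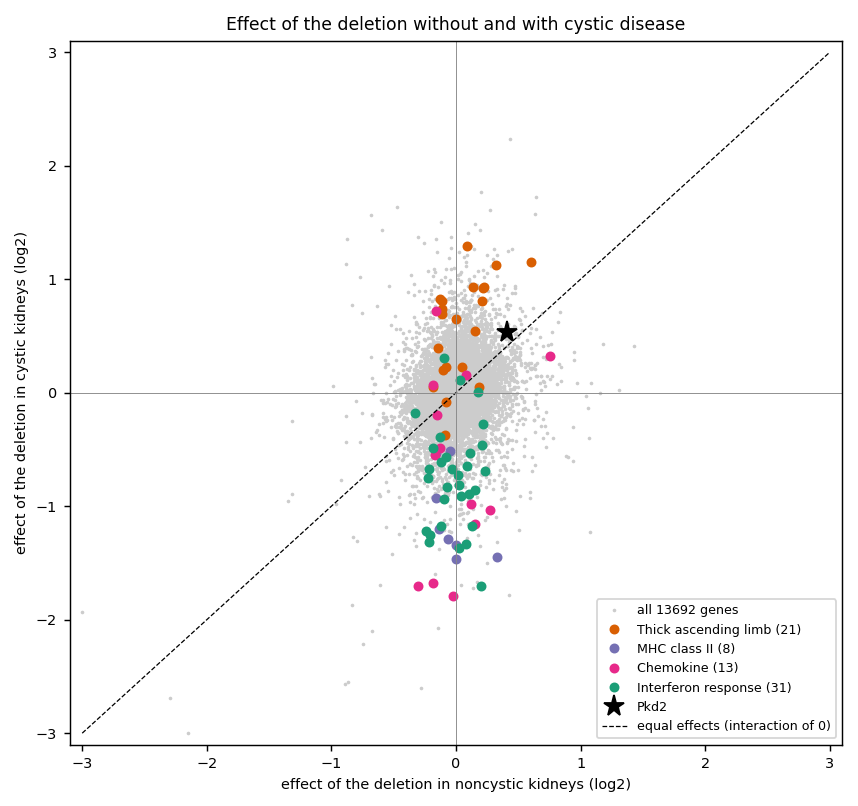
Log2 effect of the Pkd2 motif deletion in noncystic kidneys (x axis) against that in cystic kidneys (y axis) for the 13692 genes whose log2CPM averaged at least 1 (gray points, values beyond 3 drawn at 3), with members of 4 gene lists that reach this level in color and Pkd2 as a star. The dashed line marks equal effects; Pkd2 (0.40 and 0.53) sits close to it, most thick ascending limb genes lie above it, and most MHC class II and interferon-response genes lie below it.

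Wfdc15b, the first of the 3 genes past the threshold, encodes a small secreted protein with a WAP four-disulfide core domain and lies on chromosome 2, 164214454 to 164221660, reverse strand. It stood at 178, 179 and 149 CPM in noncystic Pkd2+/+ mice and at 174, 137 and 150.3 CPM in noncystic Δ17/Δ17 mice. In cystic kidneys it stood at 54.1, 54.3 and 52.4 CPM with Pkd2+/+ and at 89.4, 91.0 and 105 CPM with Δ17/Δ17. The noncystic groups overlapped, and all 3 cystic Δ17/Δ17 mice lay between the cystic Pkd2+/+ mice and the noncystic mice. The disease effect was -1.65 (standard error 0.10) on the log2 scale with Pkd2+/+ and -0.69 (standard error 0.10) with Δ17/Δ17, an interaction of 0.96 (standard error 0.14, adjusted p = 0.0359 in edgeR's quasi-likelihood test).

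Ppp1r1a encodes inhibitor-1, which blocks protein phosphatase 1 once protein kinase A has phosphorylated it (chromosome 15, 103530279 to 103538003, reverse strand). Its levels were 382, 368 and 368 CPM in noncystic Pkd2+/+ and 376, 300.1 and 356 CPM in noncystic Δ17/Δ17 mice. They were 103, 94.7 and 93.0 CPM in cystic Pkd2+/+ and 152, 183 and 173 CPM in cystic Δ17/Δ17 mice. As for Wfdc15b, the cystic Δ17/Δ17 mice formed a middle group that overlapped with no other. The disease effect was -1.94 (standard error 0.10) with Pkd2+/+ and -1.02 (standard error 0.09) with Δ17/Δ17, an interaction of 0.92 (standard error 0.13, adjusted p = 0.0359 in edgeR's test).

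H2-Ab1 encodes the beta chain of the MHC class II molecule I-A, which presents peptides to CD4 T cells (chromosome 17, 34257689 to 34269419, forward strand). It stood at 46.0, 43.9 and 51.3 CPM in noncystic Pkd2+/+ mice and at 47.7, 47.3 and 46.0 CPM in noncystic Δ17/Δ17 mice. In cystic kidneys it stood at 97.2, 126 and 121 CPM with Pkd2+/+ and at 37.4, 31.6 and 55.6 CPM with Δ17/Δ17. Only the cystic Pkd2+/+ mice stood apart, and the cystic Δ17/Δ17 mice fell on either side of the noncystic ones. The disease effect was 1.28 (standard error 0.15) with Pkd2+/+ and -0.18 (standard error 0.15) with Δ17/Δ17, an interaction of -1.46 (standard error 0.22, adjusted p = 0.0359 in edgeR's test).

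**Figure D2:**
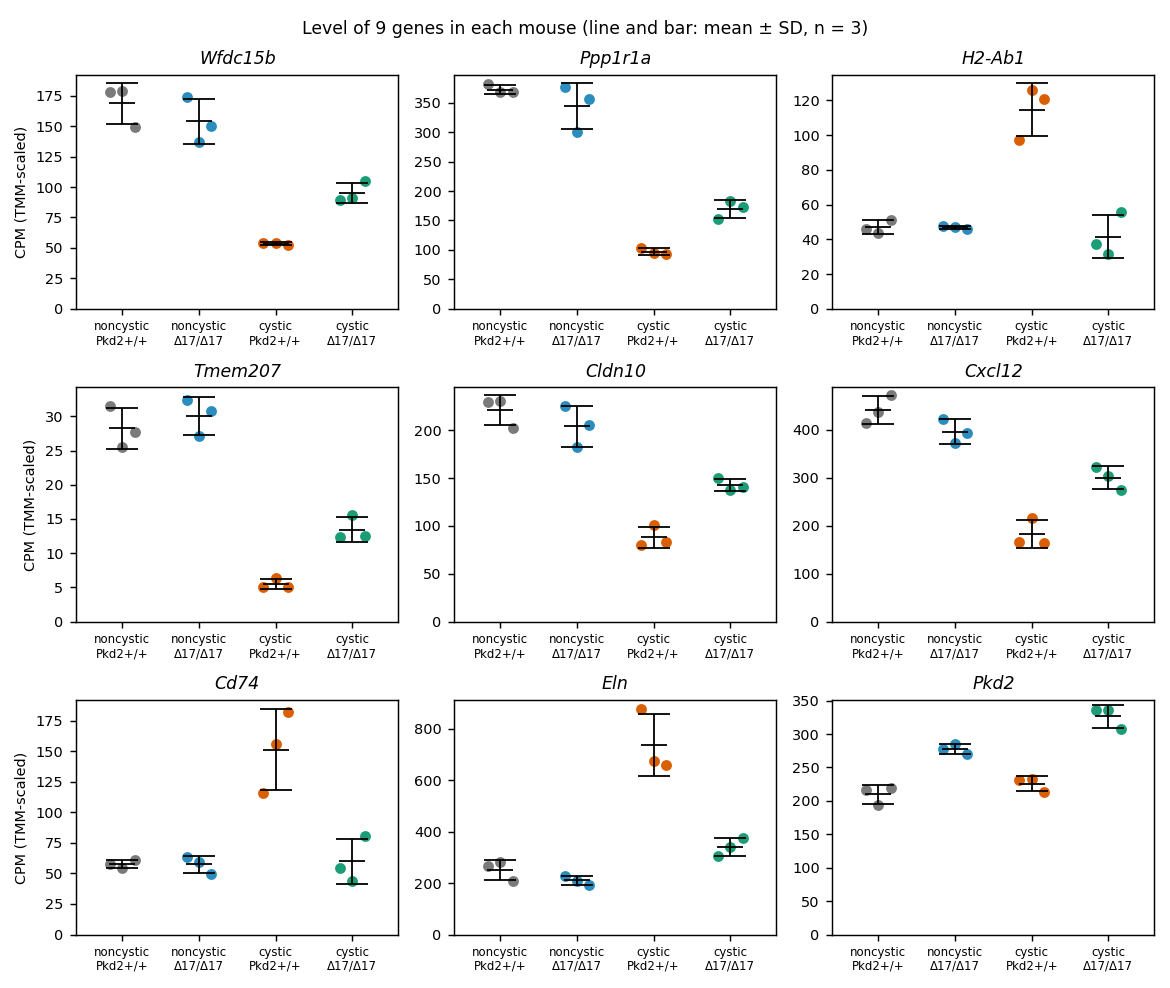
TMM-scaled CPM (linear axis from 0) of 9 genes in each of the 12 mice, by group, with the mean and SD of 3 mice. In all panels but that of Pkd2 the 3 cystic Pkd2+/+ mice (orange) sit apart from the 9 other mice, below them for Wfdc15b, Ppp1r1a, Tmem207, Cldn10 and Cxcl12 and above them for H2-Ab1, Cd74 and Eln, while Pkd2 separates by genotype in both disease states.

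These calls depended on the filter and on single mice. With edgeR's filterByExpr in place of the cutoff all 3 had an adjusted p = 0.0567 and were not called. All 3 were lost without mouse 19, 23, 24, 27 or 29, in edgeR fits with 0 genes called and 1715 to 1850 genes at an unadjusted p under 0.05. H2-Ab1 was also lost without mouse 20, 21, 22 or 28, Wfdc15b without mouse 28 and Ppp1r1a without mouse 21. When mice were left out singly, the interaction ran from 0.88 to 1.07 for Wfdc15b, from 0.83 to 1.002 for Ppp1r1a and from -1.73 to -1.30 for H2-Ab1, with adjusted p-values in edgeR's test up to 0.156. The sex of the mice is not in the labels, and high Xist marked 1, 2, 2 and 1 mice in the noncystic Pkd2+/+, noncystic Δ17/Δ17, cystic Pkd2+/+ and cystic Δ17/Δ17 groups, a split that runs along the interaction. Among the 6 mice with high Xist the interaction was 0.91 for Wfdc15b, 0.79 for Ppp1r1a and -1.62 for H2-Ab1, and among the 6 with low Xist it was 1.04, 0.9997 and -1.40. Each subset has groups of 1 mouse, so these are values without a call, and with Xist as a covariate the 3 genes were called.

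The next genes in each direction did not pass the threshold and are given as values, together with the 3 called genes making 20 leading genes, 10 above and 10 below 0. Tmem207, a membrane protein gene in the thick ascending limb list, had the highest interaction among the 10 above 0. It stood at 31.5, 25.5 and 27.8 CPM in noncystic Pkd2+/+ mice, at 32.4, 27.1 and 30.8 CPM in noncystic Δ17/Δ17 mice, at 5.11, 6.36 and 5.09 CPM in cystic Pkd2+/+ mice and at 12.3, 15.6 and 12.5 CPM in cystic Δ17/Δ17 mice. The cystic groups did not overlap, and the interaction was 1.198 (standard error 0.19, adjusted p = 0.0515 in edgeR's test).

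The 7 further genes above 0 shared an adjusted p = 0.0552 in edgeR's test. They were Kng2 (a kininogen, precursor of kinins, 0.65), Cpn1 (the catalytic subunit of carboxypeptidase N, which trims kinins and anaphylatoxins, 0.90), Gpx6 (a glutathione peroxidase, 1.17), Mgam (maltase-glucoamylase, a brush border enzyme, 0.80), Cldn10 (a claudin that forms cation pores between thick ascending limb cells, 0.81), Cxcl12 (a chemokine of stroma and vessels, 0.88) and Pla1a (a phosphatidylserine-specific phospholipase, 0.87). Kng2 stood at 476 to 496 CPM in the 6 noncystic mice, at 215, 196 and 187 CPM in cystic Pkd2+/+ mice and at 304, 318 and 309 CPM in cystic Δ17/Δ17 mice. Pla1a stood at 31.4, 35.2 and 26.8 CPM in cystic Pkd2+/+ mice and at 60.0, 55.4 and 50.9 CPM in cystic Δ17/Δ17 mice, which overlapped the noncystic range of 46.0 to 56.2 CPM.

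Below 0, the leading genes after H2-Ab1 included further parts of the MHC class II pathway. Cd74, the invariant chain that guides class II molecules, stood at 116, 156 and 182 CPM in cystic Pkd2+/+ mice and at 54.8, 44.2 and 80.4 CPM in cystic Δ17/Δ17 mice, against 49.8 to 63.2 CPM in the 6 noncystic mice. Its interaction was -1.34 (standard error 0.25, adjusted p = 0.0745 in edgeR's test). H2-Eb1, the beta chain of the class II molecule I-E, had -1.23 (standard error 0.25). Dock2, a Rac activator of leukocytes, had -1.46 (standard error 0.27), and Jak3, a kinase of lymphocyte cytokine receptors, had -0.66 (standard error 0.14).

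Eln encodes elastin, the core of elastic fibers, and stood at 877, 677 and 659 CPM in cystic Pkd2+/+ mice and at 307, 341 and 376 CPM in cystic Δ17/Δ17 mice. Both cystic groups lay above the noncystic range of 192 to 281 CPM, and the interaction was -0.86 (standard error 0.18, adjusted p = 0.130 in edgeR's test). Capn5, a calpain protease, had -0.85 (standard error 0.15, adjusted p = 0.0565 in edgeR's test), with 23.9, 24.4 and 28.1 CPM in noncystic Pkd2+/+ mice and 31.1, 35.0 and 35.4 CPM in noncystic Δ17/Δ17 mice. Its cystic levels were 74.0, 94.3 and 73.5 CPM with Pkd2+/+ and 55.2, 61.4 and 61.5 CPM with Δ17/Δ17, so the genotypes did not overlap in either disease state and the deletion effect had opposite signs (0.41 and -0.44). In edgeR's test that effect had an adjusted p = 0.771 in noncystic and 0.0324 in cystic kidneys, so only the cystic effect passed. Amotl2, an angiomotin family partner of Yap, had -0.50 (standard error 0.10), with a deletion effect of 0.25 in noncystic and of -0.25 in cystic kidneys. Neither effect passed edgeR's test (adjusted p = 0.771 and 0.0858). Sh3bgrl3 and St6galnac2 (ENSMUSG00000057286, a sialyltransferase) had -0.66 and -0.87. Of the exonic bases of these genes, 22.9% are shared with Ubxn11 for Sh3bgrl3 and 15.2% with overlapping genes for St6galnac2, so their counts are uncertain.

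In all 20 leading genes the cystic Pkd2+/+ group was the one whose mean log2CPM lay farthest from the median of the 3 other group means. The same group stood apart in 41.8% of all 13692 genes at this level, and in 77.1% of those above 0 and 75.0% of those below 0 at an unadjusted p under 0.05. In all 20 the cystic groups did not overlap, against 19% of all genes tested, and in 3 the noncystic groups did not overlap (Capn5, Dock2 and Amotl2), against 10.8%. The interaction itself chose these genes, so nothing is read from these shares. In 17 of the 20 the mean of the cystic Δ17/Δ17 mice lay between that of the noncystic mice and that of the cystic Pkd2+/+ mice. The 3 others were H2-Ab1, H2-Eb1 and Pla1a, in which it lay past the noncystic mean. Nothing is read from this count either, because the same chosen genes enter it and its share over all genes was not measured. The motif GCACTTT, the site for the miR-17 seed, was found on the sense strand of the longest 3′-UTR of 1 of the 20 genes, St6galnac2, and of 13.6% of the 16820 tested genes with an annotated 3′-UTR.

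**Figure D3:**
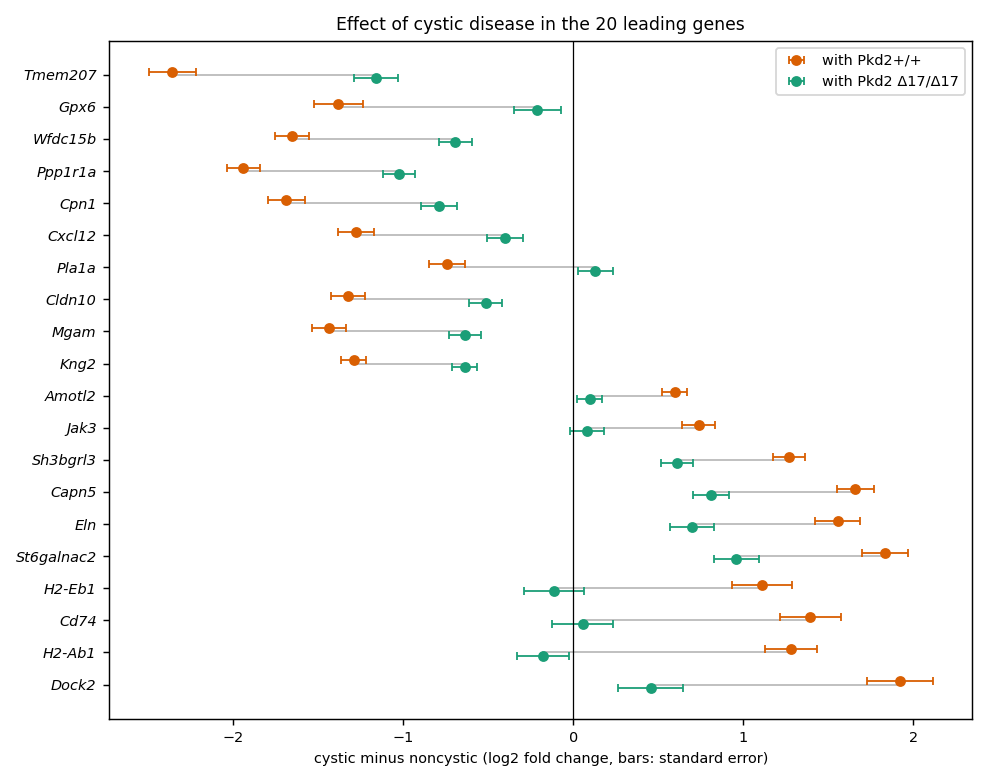
Log2 effect of cystic disease (x axis, cystic minus noncystic) in the 20 leading genes, with Pkd2+/+ in orange and Pkd2 Δ17/Δ17 in green; bars are standard errors from the edgeR fit. Every green point is shifted toward or past 0 relative to its orange point, from -1.65 to -0.69 for Wfdc15b and from 1.28 to -0.18 for H2-Ab1. The gap between the points is the interaction, which chose these genes, so nothing is read from it. Over the 13692 genes whose log2CPM averaged at least 1, 65.1% had the smaller disease effect with Δ17/Δ17.

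Gene lists were read by counts and medians of the interaction, beside the median of -0.01 over all genes tested. Over all genes tested, 4.29% lay above and 4.05% below 0 at an unadjusted p under 0.05, the shares to set beside each count. Among the nephron segments, the thick ascending limb list had the highest share above 0. This segment reabsorbs salt through the cotransporter Slc12a1 and the chloride channels at its base. All 21 members were tested. Both called genes above 0 are members, and 12 members (57.1%) lay above 0 at an unadjusted p under 0.05, against 4.29% of all genes, while 0 lay below 0 at that level. The median interaction of the list was 0.60. The 12 include Slc12a1 (0.79), Bsnd (the barttin subunit of the chloride channels, 0.85), Ptger3 (a prostaglandin E2 receptor, 0.65), Egf (epidermal growth factor, 0.80) and Casr (the calcium-sensing receptor, 0.60). Umod, the uromodulin gene, had 0.40, Kcnj1, the ROMK potassium channel, 0.30, and Cldn16, the claudin for magnesium, was at -0.00424, and none of these 3 reached an unadjusted p of 0.05.

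Relative to the mean of the noncystic Pkd2+/+ mice, the median level of the thick ascending limb genes was -0.98, -0.95 and -1.02 on the log2 scale in cystic Pkd2+/+ mice and -0.54 to -0.28 in cystic Δ17/Δ17 mice, with -0.02 to 0.05 in noncystic Δ17/Δ17 mice. The cystic groups did not overlap. The list was drawn up with leading genes of this contrast already known. Without its 5 such members, 8 of 16 lay above 0 at an unadjusted p under 0.05 and the median was 0.54. In fits that left out 1 mouse, 11 to 15 members did so and the median ran from 0.56 to 0.72. The median was 0.70 among the 6 mice with high Xist and 0.77 among the 6 with low Xist. Each Xist subset has groups of 1 mouse, so its medians, here and for the lists below, say nothing about stability.

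The other segments gave smaller medians. In the proximal tubule list, 4 of 35 members (11.4%) lay above and 3 (8.57%) below 0 at an unadjusted p under 0.05, with a median of 0.16. Without mouse 25 the counts were 12 and 2 with a median of 0.30, and without mouse 26 they were 3 and 4 with a median of 0.01. Aqp1, the water channel of the proximal tubule and thin limb, stood at 429, 525 and 356 CPM in cystic Pkd2+/+ mice and at 807, 673 and 616 CPM in cystic Δ17/Δ17 mice, against 886 to 1002 CPM in noncystic mice, with an interaction of 0.68 (standard error 0.18, adjusted p = 0.259 in edgeR's test). Slc22a7 and Slc13a1, an organic anion and a sulfate transporter, lay on the other side at -1.19 and -0.54. In the distal convoluted tubule list, 2 of 20 (10%) lay above and 1 (5%) below 0 at an unadjusted p under 0.05, with a median of 0.10. Above 0 were Fxyd2, a subunit regulator of the sodium pump (0.36), and S100g, a calcium-binding protein (0.51). The deletion effect on S100g was -0.37 in noncystic and 0.13 in cystic kidneys. Below 0 was Trpv5, the apical calcium channel (-0.67). The counts of this list above and below 0 were 5 and 1 without mouse 25 and 0 and 0 without mouse 29.

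In the principal cell list, 5 of 18 members (27.8%) lay below 0 at an unadjusted p under 0.05, against 4.05% of all genes, 0 lay above 0, and the median was -0.21. These were Scnn1a (-0.56) and Scnn1b (-0.48), subunits of the epithelial sodium channel, the transcription factors Elf5 (-1.02) and Gata3 (-0.61), and Kcne1 (-0.60), a potassium channel subunit. Aqp2, the vasopressin-regulated water channel that defines the cell type, was at -0.18. Scnn1a stood at 319, 292 and 295 CPM in cystic Pkd2+/+ and at 204, 251 and 252 CPM in cystic Δ17/Δ17 mice, and its noncystic values were 152 to 221 CPM. The count was 3 without mouse 25 or mouse 28, and the median was -0.08 without mouse 25. In the intercalated cell list, 2 of 18 (11.1%) lay below 0 at an unadjusted p under 0.05 (Car2, carbonic anhydrase 2, -0.27, and Dmrt2, -0.58), with a median of -0.11. Without mouse 26 the count was 5, and without mouse 25 it was 0 with a median of 0.10.

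**Figure D4:**
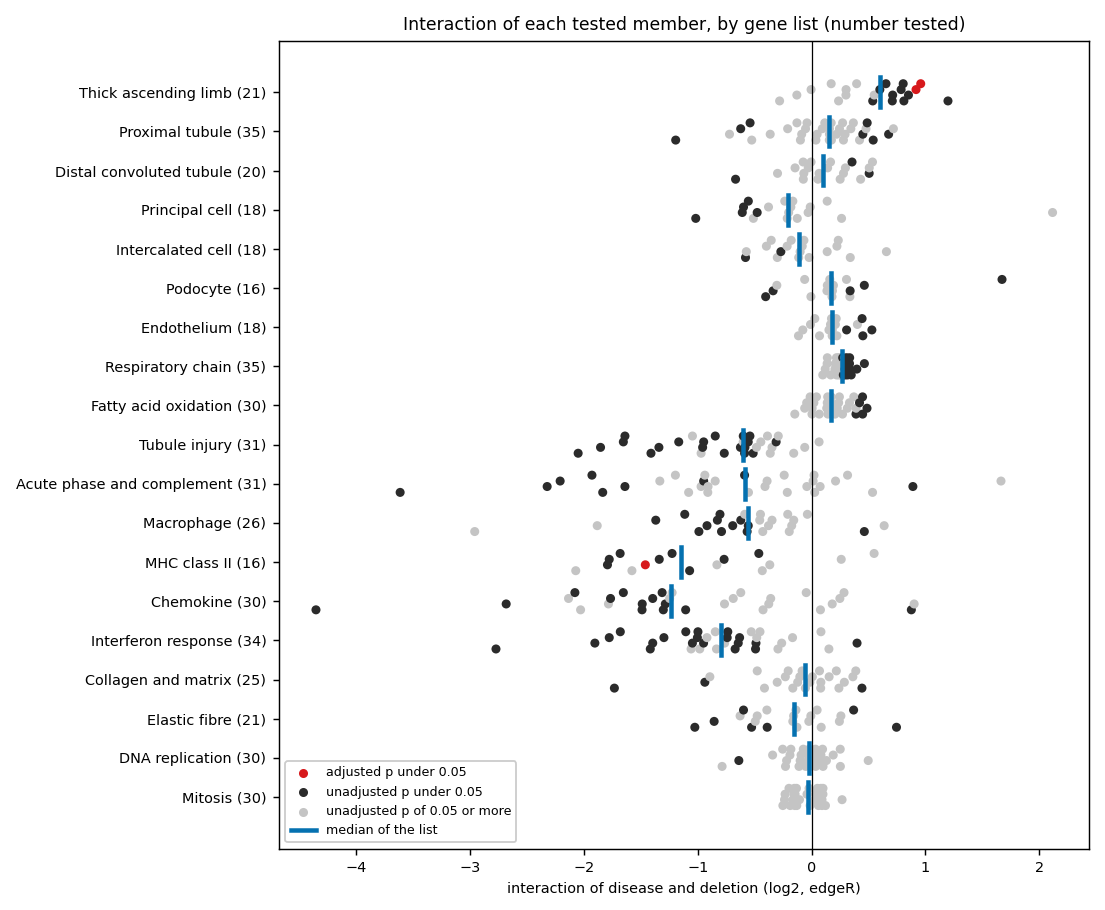
Interaction of each tested member (x axis, log2) for 19 gene lists, with the number tested in brackets; red points have an adjusted p under 0.05, dark points an unadjusted p under 0.05, and blue bars are list medians. The thick ascending limb list (median 0.60) lies to the right of 0, the injury, macrophage, MHC class II, chemokine and interferon lists lie to the left, and the DNA replication and mitosis lists center on 0 (medians -0.02 and -0.03).

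Genes of antigen presentation lay mostly below 0. In the MHC class II list, 9 of 16 members (56.2%) lay below 0 at an unadjusted p under 0.05, 0 lay above 0, and the median was -1.15. Beside H2-Ab1, Cd74 and H2-Eb1 these were H2-Aa (the alpha chain of I-A, -1.07), Ciita (the master transactivator of class II genes, -1.78), H2-DMa, H2-DMb1 and H2-DMb2 (which load peptide, -0.77, -0.46 and -1.79) and Cd209a (a lectin of dendritic cells, -1.68). The list's level was 0.69, 0.85 and 0.61 in cystic Pkd2+/+ mice and -0.47 to 0.13 in cystic Δ17/Δ17 mice, relative to the noncystic Pkd2+/+ mean. For this list the cystic Δ17/Δ17 mice lay on both sides of the noncystic mice, and the cystic Pkd2+/+ mice lay above all others. Without H2-Ab1, known from earlier results, 8 of 15 members lay below 0 at that level and the median was -1.07. The count was 9 or 10 with any mouse left out, and the median was -1.12 among the 6 mice with high Xist and -0.79 among the 6 with low Xist.

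In the macrophage list, 11 of 26 members were at an unadjusted p under 0.05 below 0 (42.3%) and 1 above 0, with a median of -0.56. Cd68, a lysosomal glycoprotein of macrophages, stood at 12.7, 13.6 and 13.9 CPM in cystic Pkd2+/+ mice and at 7.93, 7.73 and 10.3 CPM in cystic Δ17/Δ17 mice, against 4.96 to 6.27 CPM in noncystic mice, an interaction of -0.80 (standard error 0.21, adjusted p = 0.263 in edgeR's test). Ctss, the protease that cleaves the invariant chain, had -1.11, Fcer1g, the common gamma chain of Fc receptors, -0.92, Adgre1, the F4/80 antigen, -0.46, and Csf1r, the receptor for the macrophage growth factor CSF1, -0.21. The last 2 did not reach an unadjusted p of 0.05. The list's level was 1.40, 1.78 and 1.57 in cystic Pkd2+/+ mice and 0.66, 0.70 and 1.30 in cystic Δ17/Δ17 mice, so mouse 30 came close to the lowest cystic Pkd2+/+ mouse. The count was 6 without mouse 22, and the median was -0.37 without mouse 26. The median was -0.86 among the 6 mice with high Xist and -0.27 among the 6 with low Xist. At that level the lymphocyte list gave 1 above and 4 below 0 of 26, among genes with few reads: the T cell genes Cd3g (-2.96) and Cd8a (1.75) had 1 and 7 reads in their lowest mouse. Its median was -0.48, and 0.04 without mouse 22.

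Chemokines and their receptors steer leukocytes into tissue. Of 32 members 30 were tested, 12 (40%) lay below 0 at an unadjusted p under 0.05, and 1 (Cxcl12) above 0, with a median of -1.24 and a range from -4.35 to 0.90. Ccr2, the receptor for monocyte-attracting CCL2, stood at 14.7, 9.01 and 6.64 CPM in cystic Pkd2+/+ mice and at 2.5, 2.35 and 3.94 CPM in cystic Δ17/Δ17 mice, against 2.19 to 3.36 CPM in noncystic mice. Its interaction was -1.77 (standard error 0.41, adjusted p = 0.178 in edgeR's test). Its ligands Ccl2, Ccl7 and Ccl12 had -1.65, -2.68 and -1.28, and the receptor Ccr1 had -1.30. The count was 8 without mouse 29, and the median was -1.73 among the 6 mice with high Xist and -0.53 among the 6 with low Xist.

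Of 34 interferon-stimulated genes, 19 (55.9%) lay below 0 at an unadjusted p under 0.05 and 1 above 0 (Rsad2, viperin, 0.40), with a median of -0.80. Oas1a, an antiviral 2′-5′ oligoadenylate synthetase, stood at 10.7, 20.2 and 13.04 CPM in cystic Pkd2+/+ mice and at 5.62, 5.38 and 5.92 CPM in cystic Δ17/Δ17 mice, against 3.14 to 4.21 CPM in noncystic mice (interaction -1.40, standard error 0.31, adjusted p = 0.150 in edgeR's test). The list's level was 0.06, 1.28 and 0.47 in the cystic Pkd2+/+ mice 25, 26 and 27, and from -0.14 to 0.00 in cystic Δ17/Δ17 mice. In noncystic mice it was -0.09 to 0.15 with Pkd2+/+ and -0.28 to 0.13 with Δ17/Δ17, so mouse 25 lay within the noncystic range. Without mouse 26 the count was 12 and the median -0.39, without mouse 25 they were 28 and -1.05, and with Xist as a covariate the count was 10 and the median -0.66. The median was -0.94 among the 6 mice with high Xist and -0.29 among the 6 with low Xist.

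**Figure D5:**
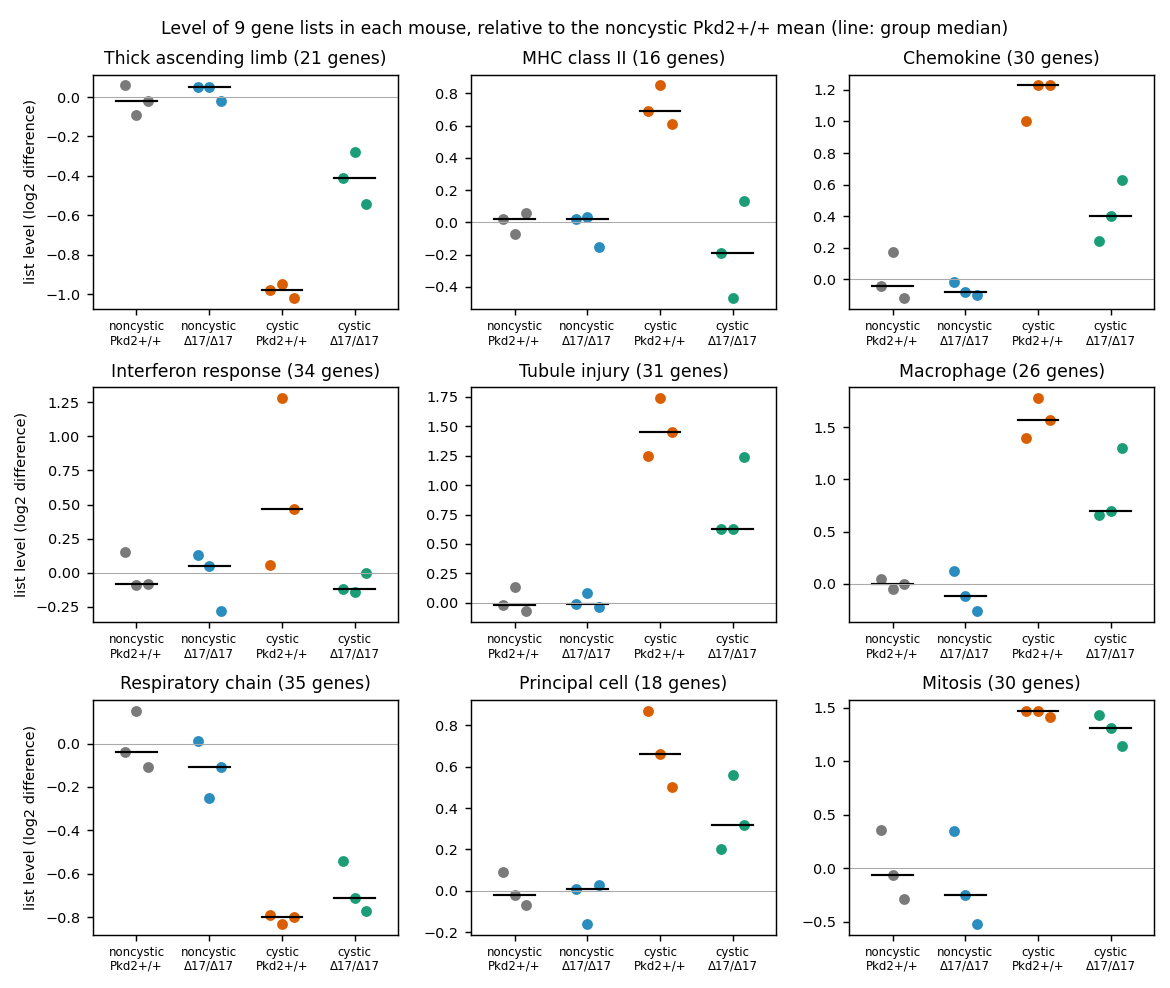
Level of 9 gene lists in each mouse (y axis: median over the tested members of log2CPM minus its mean in the noncystic Pkd2+/+ mice; axes differ between panels and need not include the same range), with black lines at the group medians. The cystic groups separate for the thick ascending limb, MHC class II and chemokine lists. They also do not overlap, by narrower gaps between the nearest mice, for interferon response (0.06 and 0.00), macrophage (1.40 and 1.30), tubule injury (1.25 and 1.24) and respiratory chain (-0.79 and -0.77). They overlap for the principal cell list and for mitosis, with mitosis levels of 1.41 to 1.47 and of 1.14 to 1.43.

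In the tubule injury list, 19 of 31 members (61.3%) lay below 0 at an unadjusted p under 0.05, 0 above 0, and 30 of 31 had a negative value, with a median of -0.60. Clu, the chaperone clusterin, stood at 1398, 1742 and 1537 CPM in cystic Pkd2+/+ mice and at 512, 611 and 1038 CPM in cystic Δ17/Δ17 mice, against 258 to 314 CPM in noncystic mice (interaction -1.17, standard error 0.26, adjusted p = 0.159 in edgeR's test). Havcr1, the injury marker KIM-1, had -1.85, Lcn2, the iron-binding protein NGAL, -1.41, and Vcam1, an adhesion molecule of failed-repair tubule cells, -0.96. For Vcam1 the disease effect was 0.13 (standard error 0.17) with Pkd2+/+ and -0.82 (standard error 0.17) with Δ17/Δ17. Its cystic Δ17/Δ17 mice, at 17.5, 11.9 and 15.1 CPM, lay below all mice of the other groups. The keratins Krt7, Krt8, Krt18, Krt19 and Krt20 had -0.62, -0.51, -0.85, -0.77 and -1.34, and Sox9, the transcription factor of repair, had -0.36 without reaching an unadjusted p of 0.05. The list's level in mouse 30 (1.24) lay just under that of the lowest cystic Pkd2+/+ mouse (1.25), against 0.63 in both other cystic Δ17/Δ17 mice. The count was 12 without mouse 21 or mouse 29 and 23 without mouse 30. The median was -1.02 among the 6 mice with high Xist and -0.21 among the 6 with low Xist, and with Xist as a covariate the count was 15 and the median -0.70.

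Acute phase and complement genes, several of which are also in the injury list, gave 8 of 31 tested members below 0 (25.8%) and 1 above 0 at an unadjusted p under 0.05, against 4.05% and 4.29% of all genes, with a median of -0.59. C3, the central complement component, stood at 156, 118 and 117 CPM in cystic Pkd2+/+ mice and at 21.1, 14.5 and 57.4 CPM in cystic Δ17/Δ17 mice, against 22.3 to 45.2 CPM in noncystic mice. Its interaction was -1.93 (standard error 0.51, adjusted p = 0.266 in edgeR's test), and C4b and Serpina3n had -1.83 and -2.21. The list's level was 1.17 in mouse 25 and 0.03 and 0.22 in the other cystic Pkd2+/+ mice. In cystic Δ17/Δ17 mice it was -0.17, -0.20 and 0.49, so the cystic groups overlapped, and in noncystic mice it ran from -0.19 to 0.02. The median interaction was -0.30 without mouse 25. It was -1.40 among the 6 mice with high Xist and -0.04 among the 6 with low Xist.

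In the elastic fiber list, 5 of 21 members (23.8%) lay below and 2 (9.52%) above 0 at an unadjusted p under 0.05, with a median of -0.16. Over all genes the shares were 4.05% and 4.29%. Fbn1, the microfibril protein, and Lox, the crosslinking enzyme, were at -0.02 and -0.16. In the collagen and matrix list, 2 of 25 (8%) lay below 0 at that level (Col8a1, -1.73, and Col12a1, -0.94). In the same list 1 (4%) lay above 0 (Dcn, decorin, 0.44), and the median was -0.05. The deletion effect on Dcn was -0.38 in noncystic and 0.06 in cystic kidneys. Col8a1, a short-chain collagen, stood at 94.2, 38.7 and 52.7 CPM in cystic Pkd2+/+ mice and at 15.4, 15.4 and 26.6 CPM in cystic Δ17/Δ17 mice. In the list of myofibroblast and mural cell genes 1 of 18 (5.56%) lay above 0 at that level (Itga8, 0.71), near the 4.29% of all genes.

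Genes of oxidative metabolism lay mostly above 0. In the list of nuclear-encoded respiratory chain subunits, all 35 members had a positive interaction, between 0.10 and 0.46, 13 (37.1%) at an unadjusted p under 0.05, with a median of 0.26. Sdhd, a subunit of succinate dehydrogenase, had 0.40 (standard error 0.14, adjusted p = 0.441 in edgeR's test). Respiratory chain genes share their regulation, so the members are not independent, and the count moved from 2 without mouse 20, 23 or 24 to 27 without mouse 22, with medians from 0.21 to 0.35. The list's level was -0.83 to -0.79 in cystic Pkd2+/+ mice and -0.77 to -0.54 in cystic Δ17/Δ17 mice. In noncystic mice it was -0.11 to 0.15 with Pkd2+/+ and -0.25 to 0.01 with Δ17/Δ17. The median deletion effect of the members was -0.12 in noncystic and 0.12 in cystic kidneys, so both states entered the interaction. In the fatty acid oxidation list, 5 of 30 lay above 0 at that level, with a median of 0.17, among them Hadh (0.45), Acadm (0.42) and Etfa (0.39), which act in the mitochondrial spiral of beta-oxidation or pass on its electrons. That count was 12 without mouse 19. Among metabolic regulators 3 of 16 lay above and 1 below 0 at that level, led by Esrrb (0.66), an orphan receptor, and in the mitochondrially encoded list 1 of 13 did (mt-Atp6, 0.71).

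In the mitosis list 0 of 30 members reached an unadjusted p of 0.05, with a median of -0.03 and values from -0.25 to 0.27. The medians of the disease effect were 1.44 with Pkd2+/+ and 1.40 with Δ17/Δ17. In the DNA replication list 1 of 30 did (Ccne1, cyclin E1, -0.64), with a median of -0.02. The median of the mitosis list moved from -0.25 without mouse 19 to 0.22 without mouse 22, when 4 members lay above 0 at an unadjusted p under 0.05. The list of Myc and its targets gave 2 of 22 (9.09%) above 0 at that level (Tfrc, the transferrin receptor, 0.57, and Ccnd2, cyclin D2, 0.58) and a median of -0.09. The deletion effect on Ccnd2 was -0.42 in noncystic and 0.16 in cystic kidneys. The Yap target list gave 2 of 19 (10.5%) below 0 (Amotl2 and Myof, -0.39) and a median of -0.11. Over all genes 4.29% lay above and 4.05% below 0 at that level. Without mouse 30 the Yap target count was 5, and without mouse 26 it was 1 with a median of -0.04. The Creb and immediate early list gave 1 of 28 (3.57%) above 0 (Nr4a3, 2.17, with 11 reads in its lowest mouse).

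Growth and vessel genes included single members above 0. Cdkn1c, the imprinted inhibitor of cyclin-dependent kinases that podocytes express, stood at 23.5, 44.3 and 51.5 CPM in cystic Pkd2+/+ mice and at 145, 85.0 and 77.2 CPM in cystic Δ17/Δ17 mice, against 68.5 to 129 CPM in noncystic mice. Its interaction was 1.67 (standard error 0.37, adjusted p = 0.150 in edgeR's test), and it shares 30.7% of its exonic bases with another gene model. Igfbp5 and Igf1, a binding protein of insulin-like growth factor and the factor itself, had 1.12 and 0.64, among 4 of 24 members of the imprinted growth list above 0 at an unadjusted p under 0.05, where 4.29% of all genes lay. At that level 1 member of this list (4.17%) lay below 0. At any p, 13 members lay above and 11 below 0, with a median of 0.07. In the endothelium list 4 of 18 lay above 0 at an unadjusted p under 0.05, among them Tek, the angiopoietin receptor (0.53), and its coreceptor Tie1 (0.45), with a list median of 0.18, and the count was 2 without mouse 20, 23, 25 or 28. In the list of hypoxia and renin genes 4 of 20 lay above 0 at the same level, among them Agtr1a (0.49) and Ace (0.69) of the angiotensin system. In the podocyte list 3 of 16 lay above and 2 below 0 at that level (Synpo, -0.40, and Cd2ap, -0.34), with a list median of 0.17.

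The polycystin list had 11 of 14 members tested and the microRNA processing list 13 of 13, and 0 members of either reached an unadjusted p of 0.05. In cholesterol and fatty acid synthesis 2 of 30 (6.67%) lay above 0 at that level (Hmgcs1, 0.32, and Hsd17b7, 0.34) and 1 (3.33%) below 0 (Nsdhl, -0.28). Over all genes the shares were 4.29% and 4.05%. Among clustered histones 1 of 13 tested (7.69%) lay above 0 at that level (H1f2, 0.43). The deletion effect on H1f2 was -0.53 in noncystic and -0.10 in cystic kidneys. Lists for other tissue in the dissection and for sex gave, at that level, 0 of 11 red blood cell genes, 0 of 13 adrenal genes, 1 of 12 fat genes (Lpl, 0.44) and 0 of 5 sex chromosome genes. The median interaction of the adrenal list was nonetheless 1.34, and it was -5.32 without mouse 30 and 3.08 without mouse 27. The median of the sex chromosome list was 2.02, and it was 7.22 without mouse 27, when 4 of its members lay above 0 at that level.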

How the data were processed

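Per the paper's methods, the authors trimmed reads with Trim Galore 0.6.3, aligned them to GRCm38 with STAR 2.5.3a and counted reads per gene on Ensembl release 94 models. They deposited raw whole-number counts for 54532 genes with no normalization. The strand setting is not given in the sources used here, so overlapping genes are uncertain. Genes without a name (343, with 0.0225% of the reads) kept their identifier.

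The test of the interaction was edgeR 4.0.16 in R 4.3.3 (TMM, quasi-likelihood test, 1 mean per group, 8 residual degrees of freedom, Benjamini-Hochberg adjustment over all genes tested). Genes averaging a log2CPM of -3 or more (prior count 2) were tested, 24642 in all. The alternatives used limma 3.58.1 and DESeq2 1.42.0, other scalings and filters, Xist as a covariate and each mouse left out. The fits by Xist level were added after seeing the data. The test was tried on simulated data. No pair of replicates was close enough in counts to be 1 library deposited a second time (chi-square per degree of freedom 8.88 to 24.3). P-values measure the spread between the mice as numbered in the titles.

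Named genes were those the study assayed, the called genes, the genes of smallest unadjusted p among those averaging a log2CPM of 1 or more, up to 10 per direction, up to 3 members of each list with the smallest unadjusted p under 0.05, and Xist and Ddx3y. Further list members were named after their values were seen. The members, the 36 lists and these rules were chosen with earlier results of these data known. Coordinates and 3′-UTRs are those of GENCODE M21 on GRCm38. Ddx3y (below 2 CPM in the 6 mice with high Xist) matched Xist in every mouse. The other lines of the study were not analysed here. Some genes that these rules name are not reported here.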

Additional observations from a re-analysis of the deposited data

Results flagged for a closer look

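The effect of the deletion differed between cystic and noncystic kidneys by edgeR's test of the interaction for 3 genes. The difference was 0.96 for Wfdc15b and 0.92 for Ppp1r1a, and -1.46 for H2-Ab1, in log2 units (cystic minus noncystic effect). None of the 3 was called with filterByExpr or without mouse 19, 23, 24, 27 or 29. Groups of 3 mice are too small for a check of single samples against their group.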

How the results depend on the processing

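No paired analysis was possible because the mouse numbers in the labels are unique and the groups share none. Against 3 genes called (2 above and 1 below 0), limma-trend gave 9 with library totals (7 and 2) and 6 with TMM (4 and 2), DESeq2's Wald test 137 (92 and 45), library totals in edgeR 8 (7 and 1), and DESeq2's size factors 3. Without a cutoff there were 566 (294 and 272), in a fit whose prior degrees of freedom were infinite, so that the spread of a gene's own mice no longer entered. At least 10 counts in every mouse gave 12 (11 and 1), filterByExpr 0 (1688 genes at an unadjusted p under 0.05), Xist as a covariate 13 (12 and 1), and an adjusted p under 0.1 gave 27 (22 and 5). Leaving out 1 mouse gave 0 to 61 genes (0 to 47 above and 0 to 28 below 0), with the most without mouse 25 (61), 30 (57) or 26 (48). The 6 mice with high and the 6 with low Xist gave 0 each (794 and 937 genes at an unadjusted p under 0.05), in fits with single mice in some groups that say nothing about stability. All 3 called genes were also called by limma-trend, DESeq2, both other scalings, no cutoff, the 10-count filter and the Xist covariate, and none of them with filterByExpr (adjusted p = 0.0567 each in edgeR's test). Pkd2 stayed uncalled in every setting run, between 0.09 and 0.19 with a mouse left out. Among the named genes, Creb1 changed sign, to 0.0482 with the Xist covariate, 0.0204 without mouse 21, 0.0179 without mouse 22, 0.00176 without mouse 26 and 0.136 among the 6 mice with low Xist (from -0.0994 to 0.0204 with a mouse left out). Ccne1 changed sign among the 6 mice with high Xist (0.03), Xist with itself as covariate (0.00127) and among the 6 with low Xist (0.23), and Ddx3y among the 6 with low Xist (-0.16). The causes of these shifts were not tested. Depth was 18800307 counts or more per mouse.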
